A study of Homo sapiens with 9 samples.

Results

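The genes described here are 48 genes of DNA replication and of the transition between G1 and S phase of the cell cycle. They were chosen by symbol from what is known of their function, with earlier results of these data known. Each symbol matched 1 gene ID among the 57905 IDs of the count table. For description they were divided by role into E2F factors and E-type cyclins (5 genes), the MCM2-7 helicase (6), origin licensing and helicase activation (10), the sliding clamp with its loaders, flap nuclease and ligase (9), polymerases (8), nucleotide supply (4), and chromatin, single-strand DNA and checkpoint factors (6). RNA was measured in the human cell line A549, which was established from a lung adenocarcinoma, in 3 libraries with a short hairpin RNA (shRNA) against AKR1B1, 3 with an shRNA against SORD and 3 control libraries. AKR1B1 encodes aldose reductase and SORD encodes sorbitol dehydrogenase, which catalyse the first and the last step of the polyol pathway from glucose by way of sorbitol to fructose. The control libraries are titled plko and labelled as scrambled controls, and the labels leave unsettled whether that means a scrambled hairpin or an empty vector. All 9 libraries came from the same cell line grown with 5% fetal bovine serum. Each target has 1 shRNA label, so an effect of the hairpin itself cannot be told apart from that of its target. The libraries of a group are separate samples, but nothing used here says whether they came from separate transductions, and p-values measure only the spread between these libraries.

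Before S phase, the origin recognition complex, CDC6 and CDT1 load the ring-shaped MCM2-7 helicase onto DNA. Cyclin E with CDK2 then helps to convert loaded rings into active helicases by the addition of CDC45 and the GINS complex, and polymerases, a sliding clamp and a supply of deoxynucleotides carry the synthesis. Most of these genes are known targets of the E2F transcription factors, which the retinoblastoma family of proteins holds back in G1, so their transcripts are widely read as a sign of cells entering S phase. In lung adenocarcinoma, as in other cancers, high levels of such transcripts accompany proliferation.

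The promoters of 40 of the 48 genes are given by RefSeq (GRCh38.p14), as 48 windows of 250 bases before to 50 bases after each annotated start. They were searched on both strands for the E2F letters TTTCCCGC, TTTGGCGC, TTTCGCGC and TTTGCCGC, for CCAAT, the letters of the NF-Y box, and for TTTGAA, the letters of the CHR element common in G2/M genes. The 4 E2F words can overlap on opposite strands, and each match was counted. E2F letters were found in 20 of 48 windows (41.7%), against 3.31% of all 35116 windows of the table. By gene, 20 of 40 held them, against 3.99% of 27305 genes. CCAAT stood in 60.4% of the windows, against 34.6% of all windows, and TTTGAA in 2.08%, against 15.2%. The windows compared were not matched for base content, on which such shares also depend, and the shares were not tested. The 160 bases before the start are printed in the direction of each gene for 4 genes with E2F letters and for 2 genes without them in the whole window, the one that fell most and the one that did not pass the test in either knockdown. Capitals mark the E2F letters on either strand. MCM6 is at chr2:135876444-135876603 (minus strand), E2F1 at chr20:33686386-33686545 (minus strand), RFC3 at chr13:33817989-33818148 (plus strand), GINS2 at chr16:85688955-85689114 (minus strand), MCM10 at chr10:13161398-13161557 (plus strand) and RFC1 at chr4:39366363-39366522 (minus strand).
MCM6: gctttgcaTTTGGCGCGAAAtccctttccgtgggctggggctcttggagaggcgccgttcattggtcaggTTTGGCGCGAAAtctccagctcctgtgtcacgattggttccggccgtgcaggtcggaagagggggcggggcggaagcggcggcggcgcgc
E2F1: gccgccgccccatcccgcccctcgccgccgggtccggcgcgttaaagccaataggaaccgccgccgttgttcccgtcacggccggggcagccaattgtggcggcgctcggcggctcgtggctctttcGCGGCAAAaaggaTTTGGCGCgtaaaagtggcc
RFC3: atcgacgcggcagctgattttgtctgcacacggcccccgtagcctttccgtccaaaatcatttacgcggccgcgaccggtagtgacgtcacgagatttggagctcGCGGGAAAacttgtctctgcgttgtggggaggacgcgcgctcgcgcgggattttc
GINS2: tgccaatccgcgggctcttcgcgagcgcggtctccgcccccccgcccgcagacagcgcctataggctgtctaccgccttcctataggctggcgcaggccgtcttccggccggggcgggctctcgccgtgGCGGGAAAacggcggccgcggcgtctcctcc
MCM10: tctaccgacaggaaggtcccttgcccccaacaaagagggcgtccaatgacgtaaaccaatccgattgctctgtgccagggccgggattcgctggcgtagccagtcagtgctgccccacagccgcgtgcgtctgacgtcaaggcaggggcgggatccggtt
RFC1: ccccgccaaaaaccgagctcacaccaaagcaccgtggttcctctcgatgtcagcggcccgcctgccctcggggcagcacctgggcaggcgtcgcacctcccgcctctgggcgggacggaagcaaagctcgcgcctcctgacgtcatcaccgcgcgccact

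The MCM6 window held 4 matches in 2 overlapping pairs, whose first letters stand at -152 and -90 from the start, and was one of 5 genes with more than 1 match in a window. E2F1 held 2 matches at -33 and -20, RFC3 held 1 at -55 and GINS2 held 1 at -31. The 20 genes with E2F letters had a median log2 fold change of -0.51 with shAKR1B1 and -0.47 with shSORD against control, and 19 of them fell with shAKR1B1 and 18 with shSORD. The 20 genes whose window lacked the letters had medians of -0.53 with shAKR1B1 and -0.53 with shSORD, and 19 fell in each. MCM10 and RFC1, which bound the range of fold changes with shAKR1B1, both belong to the windows without the letters. A match is a description of the sequence and was not tested for binding. Only exact copies of the 4 words were sought, so a window without them may hold a variant of the E2F letters.

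**Figure D1:**
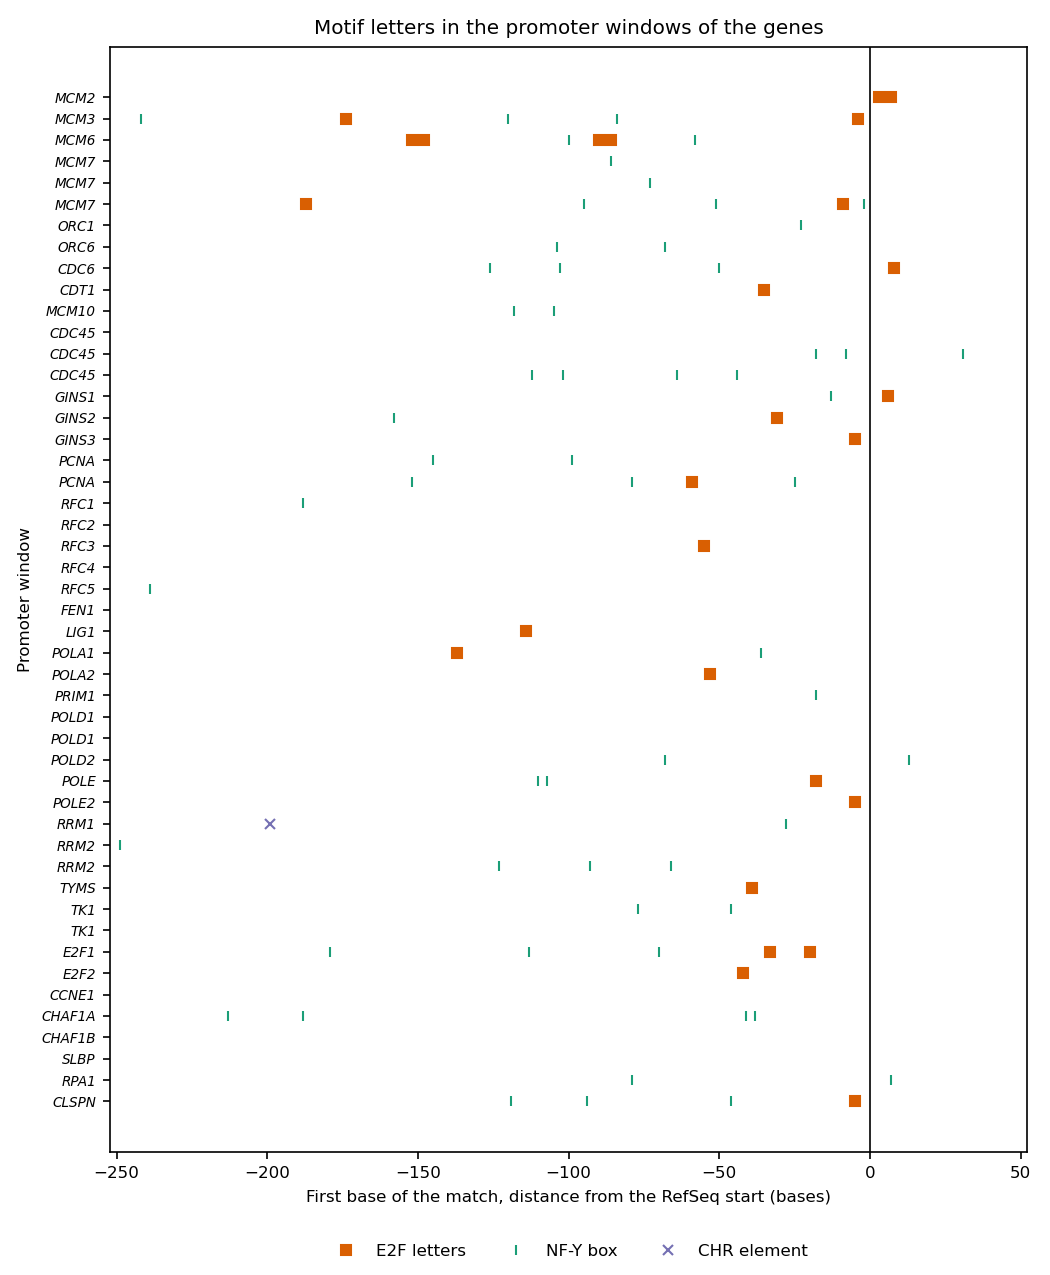
Positions of the E2F letters (orange squares), the NF-Y box (green ticks) and the CHR element (purple cross) in 48 promoter windows of 40 genes. The horizontal axis is the distance of the first base of a match from the RefSeq start in bases, and each row is a window. E2F letters occur in 20 windows, and the CHR letters in 1, that of RRM1.

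Total counts ranged from 32436524 to 43044456 per library, and every one of the 48 genes passed the filter on low counts, with 241 to 17879 counts per library. Each target was lowest in the libraries of its own label. Each was also called as fallen with the other shRNA in the edgeR test described below. The log2 fold change of AKR1B1 with shSORD was -0.41 (adjusted p = 0.000131), and that of SORD with shAKR1B1 was -0.49 (adjusted p = 6.43e-06). AKR1B1 was at 146, 148 and 167 CPM in the shAKR1B1 libraries, 945, 1109 and 1135 CPM in the shSORD libraries and 1456, 1395 and 1397 CPM in the control libraries, and SORD at 30.4, 30.2 and 31.02 CPM in the shAKR1B1 libraries, 8.68, 8.997 and 8.18 CPM in the shSORD libraries and 44.1, 43.04 and 41.7 CPM in the control libraries. Epithelial keratins and adhesion genes fixed as markers of the cell line were detected throughout (6 of 6), and their summed level was 12320 to 12940 CPM with shAKR1B1, 10750 to 12800 CPM with shSORD and 8686 to 8907 CPM in control cells. By gene, 5 of the 6 rose in each knockdown, while KRT7 fell. Such calls were common, as 27.8% of the 16916 genes in the test were called higher and 29.6% lower with shAKR1B1. For shSORD the shares were 27.5% higher and 29.0% lower. Alveolar type II markers summed to 50.97 to 54.7 CPM with shAKR1B1, 60.4 to 74.3 CPM with shSORD and 56.6 to 57.5 CPM in control cells, nearly all from the lipid transporter ABCA3. Of the 5 of 8 that passed the filter, NAPSA and SFTPD rose with shAKR1B1, and NAPSA, SFTPD and ABCA3 with shSORD, while the defining surfactant gene SFTPB was at 0 counts in all libraries. Fibroblast markers summed to 9.23 to 10.7 CPM with shAKR1B1, 35.4 to 56.9 CPM with shSORD and 16.2 to 17.8 CPM in control cells. The sum was mostly COL1A1, and 6 of 8 passed the filter, while the fibroblast proteoglycan DCN had at most 4 counts in a library. A gene can pass the filter through the libraries of 1 group alone. Of the 6, 5 rose with shSORD (COL1A1, COL1A2, COL3A1, LUM and PDGFRB), and those other than COL1A1 rose from low control levels. With shAKR1B1, COL1A1 and THY1 fell and LUM rose. Leukocyte markers summed to 5.22 to 5.97 CPM with shAKR1B1, 2.88 to 4.53 CPM with shSORD and 8.14 to 9.83 CPM in control cells, with 2 of 6 detected, CD14, which fell in both knockdowns, and LYZ, which rose to 19 to 27 counts with shAKR1B1 and 3 to 11 counts with shSORD, against 1 to 2 counts in control libraries. CD3E was at 0 counts and PTPRC at no more than 3 counts in any library. Endothelial markers summed to no more than 0.285 CPM in any library, and none of the 5 in the table passed the filter. The part of these marker levels in the results below was not tested.

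Nearly all of the replication and G1/S genes fell in both knockdowns. Because the genes were chosen with earlier results of these data known, the shares below describe the set and do not test it. With shAKR1B1 against control, 46 of 48 fell (95.8%) and 0 rose, beside 29.6% of all 16916 tested genes that fell and 27.8% that rose in this comparison. With shSORD against control, 45 of 48 fell (93.8%) and 0 rose, beside 29.0% of all tested genes that fell and 27.5% that rose. The exceptions were the clamp loader subunit RFC1 and the licensing factor CDT1 with shAKR1B1, and RFC1, the clamp PCNA and the polymerase subunit POLE with shSORD. Calls are at an adjusted p under 0.05 in edgeR's quasi-likelihood test. At an unadjusted p under 0.05 no gene of the set rose in either knockdown, and DESeq2 also called 0 risen. RFC1 was called risen with shAKR1B1 under upper quartile scaling and with only the libraries of the 2 groups compared. The 2 comparisons share their 3 control libraries, so their values are given side by side and are not independent of each other.

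The falls were of moderate size. The median log2 fold change of the 48 genes was -0.53 with shAKR1B1 (69.1% of control) and -0.52 with shSORD (69.8% of control), beside medians of -0.0024 and -0.0021 over all tested genes. Standard errors of single genes lay between 0.046 and 0.133. With shAKR1B1, 19 genes were lower by more than 1.5-fold, and 1 of them, MCM10, by more than 2-fold. With shSORD, 14 were lower by more than 1.5-fold and 0 by more than 2-fold. Among the 8671 genes whose control level lay within the range of these 48 (12.75 to 448.1 CPM), 41.1% fell and 22.9% rose with shAKR1B1, with a median of -0.09, and 41.5% fell and 21.4% rose with shSORD, with a median of -0.10.

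Summed over the 48 genes, the level was 3855, 3989 and 4076 CPM in the shAKR1B1 libraries, 3853, 4226 and 4306 CPM in the shSORD libraries, and 5698, 5751 and 5667 CPM in the control libraries. The mean sum was 69.6% of control with shAKR1B1 and 72.4% of control with shSORD. Every knockdown library was below every control library, and the shSORD libraries spread more widely (SD 241.8 CPM) than the shAKR1B1 libraries (SD 111.3 CPM) or the control libraries (SD 42.5 CPM). In a single library the median gene stood at 65.9%, 68.3% and 70.7% of the control mean with shAKR1B1 and at 64.3%, 72.6% and 74.5% with shSORD. The lowest of these medians belonged to shSORD replicate 1. The ranges of the knockdown and control libraries did not overlap for 47 genes with shAKR1B1 and 45 with shSORD, all of them lower in the knockdown. Of all tested genes, 35.7% lay below control without overlap and 33.5% above it with shAKR1B1, and 31.0% below and 29.1% above with shSORD, in all 69.1% with shAKR1B1 and 60.1% with shSORD. In bulk RNA, fewer cells in S phase and less of each transcript per cell cannot be told apart.

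**Figure D2:**
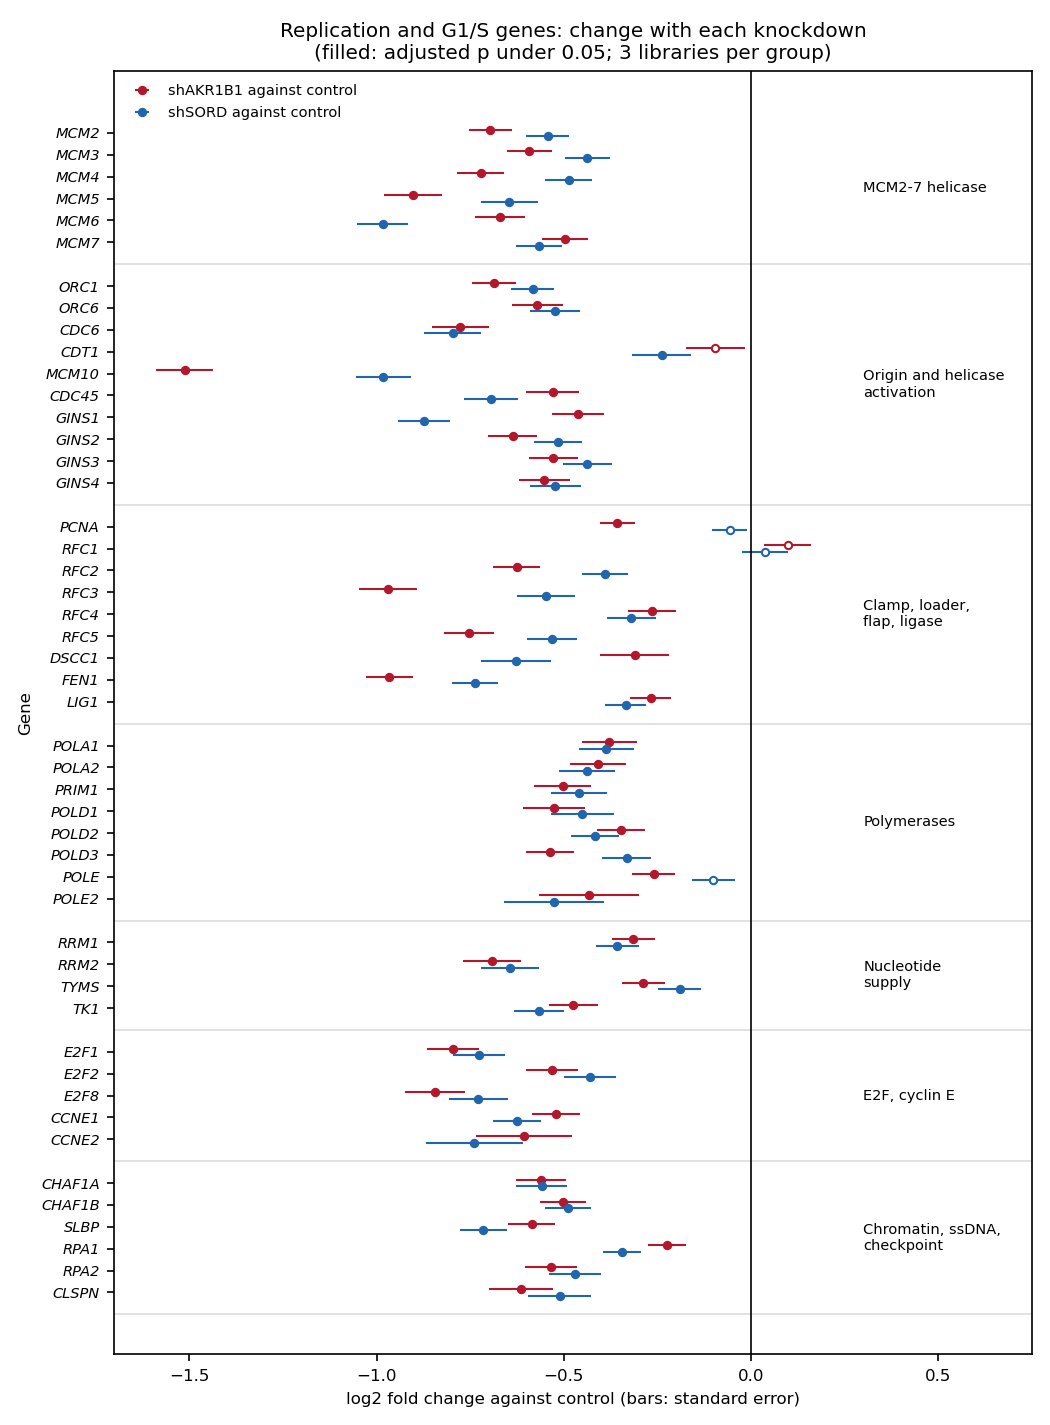
Log2 fold change of each of the 48 genes against control (horizontal axis), with shAKR1B1 and with shSORD (n = 3 libraries per group). Points are fitted values, bars their standard errors, and filled points passed an adjusted p under 0.05. All called points lie left of 0, from -1.51 (MCM10 with shAKR1B1) upward, and RFC1 stands right of 0 without passing the test.

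**Figure D3:**
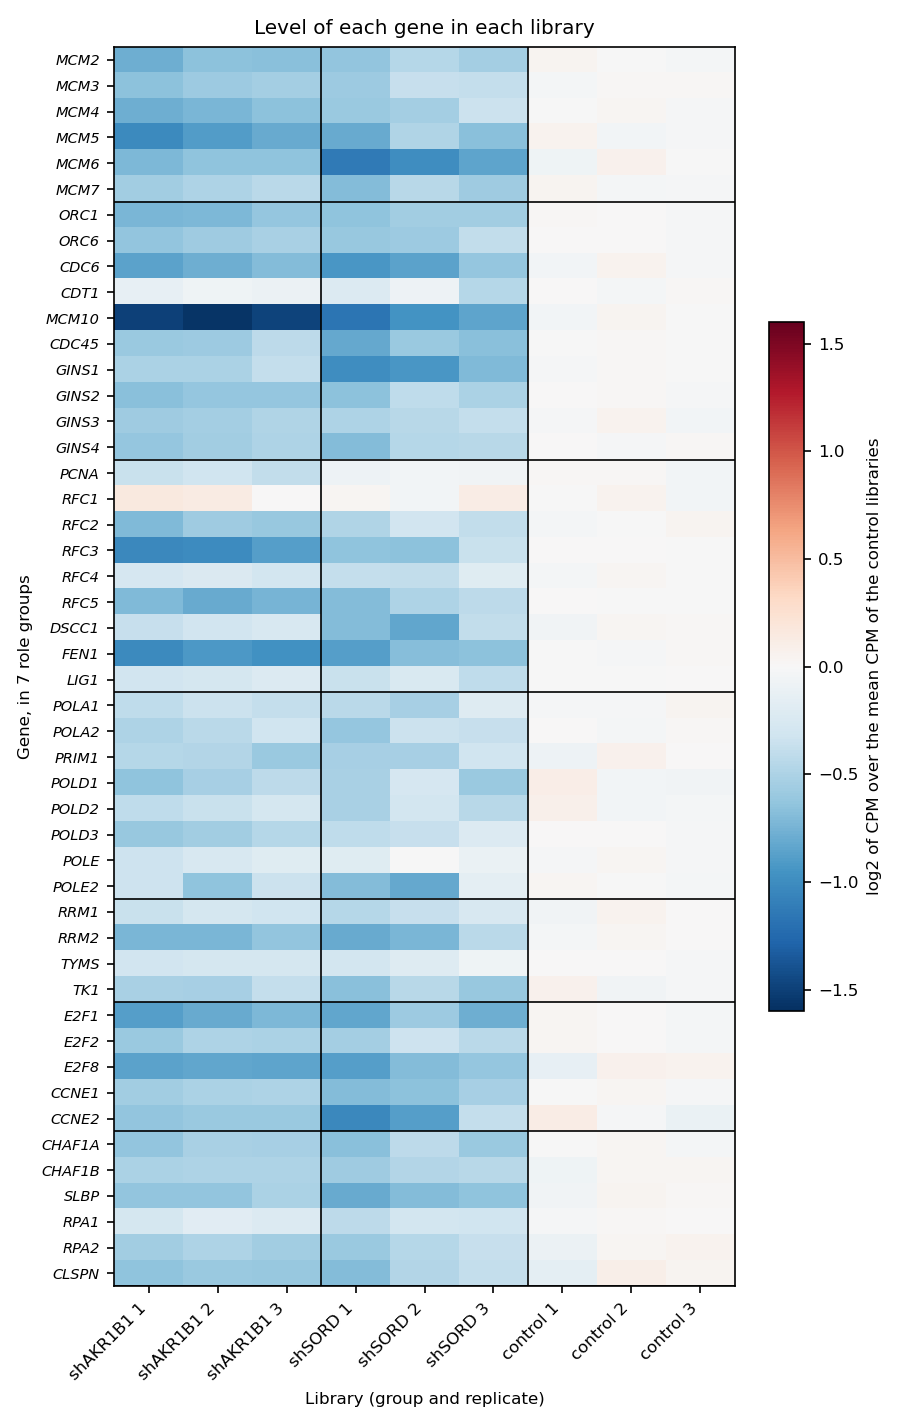
Log2 ratio of the CPM of each gene (rows, in 7 role groups) in each library (columns) to its mean in the control libraries (n = 3 libraries per group). Blue is lower and red is higher than control. Blue covers nearly every row of the 6 knockdown libraries, RFC1 is pale red in most of them, and PCNA and POLE are pale with shSORD.

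The E2F factors and E-type cyclins were all lower in both knockdowns (5 of 5 in each), with a median log2 fold change of -0.61 with shAKR1B1 and -0.73 with shSORD. E2F8, an atypical E2F that represses E2F targets and is itself such a target, was at 17.9, 18.4 and 18.1 CPM in the shAKR1B1 libraries, 17.6, 20.1 and 21.2 CPM in the shSORD libraries and 29.7, 34.05 and 33.8 CPM in the control libraries. All knockdown libraries lay below all control libraries. Its log2 fold change was -0.84 (SE 0.0794, adjusted p = 4.07e-07) with shAKR1B1 and -0.73 (SE 0.0788, adjusted p = 2.07e-06) with shSORD. Cyclin E2 (CCNE2), a partner of CDK2 and the lowest of the 48 genes per exon length, was at 8.21, 8.46 and 8.44 CPM in the shAKR1B1 libraries, 6.24, 6.90 and 9.76 CPM in the shSORD libraries and 13.8, 12.6 and 11.8 CPM in the control libraries. The shSORD libraries of CCNE2 ranged widely, with replicate 3 highest, yet stayed below the control libraries. Its log2 fold change was -0.61 (SE 0.128, adjusted p = 0.000925) with shAKR1B1 and -0.74 (SE 0.129, adjusted p = 0.000191) with shSORD. Of its exon bases 37.0% overlap the opposite-strand gene INTS8, and since the strand setting of the counting is not given in the sources used here, its level is uncertain. The activator E2F1 averaged 42.8 ± 2.32 CPM with shAKR1B1, 44.9 ± 4.22 CPM with shSORD and 74.3 ± 1.34 CPM in control cells (SD, n = 3 each). E2F2, another activator, had log2 fold changes of -0.53 with shAKR1B1 and -0.43 with shSORD. Cyclin E1 (CCNE1) stood at -0.52 with shAKR1B1 and -0.63 with shSORD.

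All 6 subunits of the MCM2-7 helicase, which unwinds DNA at the replication fork, fell in both knockdowns, with a median of -0.68 with shAKR1B1 and -0.55 with shSORD. Their summed level was 974 to 1060 CPM with shAKR1B1, 976 to 1110 CPM with shSORD and 1583 to 1606 CPM in control cells. The subunit that fell most differed between the knockdowns. MCM5 was at 81.7, 89.01 and 94.3 CPM in the shAKR1B1 libraries, 94.1, 118 and 104 CPM in the shSORD libraries and 172, 161 and 163 CPM in the control libraries. Every knockdown library was below every control library, and the shAKR1B1 libraries overlapped the lowest shSORD library. Its log2 fold change was -0.90 (SE 0.0770, adjusted p = 1.45e-07) with shAKR1B1 and -0.65 (SE 0.0764, adjusted p = 5.10e-06) with shSORD. MCM6 was at 141, 148 and 149 CPM in the shAKR1B1 libraries, 106, 117 and 129 CPM in the shSORD libraries and 222, 243 and 232 CPM in the control libraries. Here the order of the knockdowns was turned round, with every shSORD library below every shAKR1B1 library. MCM6 (ENSG00000076003) had a log2 fold change of -0.67 (SE 0.0668, adjusted p = 7.56e-07) with shAKR1B1 and -0.98 (SE 0.0672, adjusted p = 1.96e-08) with shSORD. MCM4 was at 222, 228 and 241 CPM in the shAKR1B1 libraries, 252, 262 and 299.9 CPM in the shSORD libraries and 378, 387 and 375 CPM in the control libraries, with no overlap among the 3 groups. Its log2 fold change was -0.72 with shAKR1B1 and -0.49 with shSORD. MCM2, MCM3 and MCM7 ranged from -0.70 to -0.50 with shAKR1B1 and from -0.57 to -0.44 with shSORD. An antisense transcript overlaps 22.7% of the MCM2 exon bases, so its counts are uncertain.

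Among the 10 genes of origin licensing and helicase activation, 9 fell with shAKR1B1 and 10 with shSORD, with medians of -0.56 with shAKR1B1 and -0.55 with shSORD. MCM10, which binds the assembled helicase and is needed for its activation, changed most of all 48 genes with shAKR1B1. It was at 29.7, 28.3 and 30.1 CPM in the shAKR1B1 libraries, 37.3, 43.3 and 46.7 CPM in the shSORD libraries and 81.3, 86.4 and 83.8 CPM in the control libraries. The 3 groups did not overlap, with shAKR1B1 lowest and control highest. MCM10 (ENSG00000065328) averaged 35.1% of control with shAKR1B1 and 50.6% with shSORD, with log2 fold changes of -1.51 (SE 0.0756, adjusted p = 4.72e-10) with shAKR1B1 and -0.98 (SE 0.0739, adjusted p = 5.39e-08) with shSORD. GINS1, a subunit of the 4-part GINS complex that joins the helicase, was at 71.8, 71.5 and 78.2 CPM in the shAKR1B1 libraries, 50.9, 53.6 and 62.2 CPM in the shSORD libraries and 101, 103 and 102 CPM in the control libraries. The shSORD libraries were lowest, the shAKR1B1 libraries stood between, and no group overlapped another. GINS1 (ENSG00000101003) had a log2 fold change of -0.46 (SE 0.0697, adjusted p = 4.71e-05) with shAKR1B1 and -0.87 (SE 0.0704, adjusted p = 1.07e-07) with shSORD.

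The other GINS subunits (GINS2, GINS3 and GINS4) lay between -0.64 and -0.53 with shAKR1B1 and between -0.52 and -0.44 with shSORD. The origin recognition subunits ORC1 and ORC6 stood at -0.69 and -0.57 with shAKR1B1 and at -0.58 and -0.52 with shSORD. The loading factor CDC6 was at -0.78 with shAKR1B1 and -0.80 with shSORD, and CDC45, which joins the helicase beside GINS, at -0.53 with shAKR1B1 and -0.69 with shSORD. CDT1, which brings the MCM ring to the origin, averaged 43.7 ± 1.04 CPM with shAKR1B1, 39.6 ± 5.15 CPM with shSORD and 46.7 ± 0.792 CPM in control cells (SD, n = 3 each). With shAKR1B1 it was -0.10 on the log2 scale and did not pass the test (adjusted p = 0.317), although its libraries were all below the control libraries. With shSORD it fell (-0.24, adjusted p = 0.0183), and this call was lost in 7 of 16 alternatives, among them the fits without shSORD replicate 3 (-0.12, adjusted p = 0.0858), shSORD replicate 1 (-0.24, adjusted p = 0.0573), control replicate 1 (-0.24, adjusted p = 0.0505) or control replicate 3 (-0.22, adjusted p = 0.0786). A transcript of the opposite strand overlaps 21.2% of the exon bases of GINS4, so its counts are uncertain.

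Of the clamp, clamp loaders, flap nuclease and ligase, 8 of 9 fell with shAKR1B1 and 7 of 9 with shSORD, with medians of -0.36 with shAKR1B1 and -0.39 with shSORD. FEN1, the flap endonuclease that trims Okazaki fragments, was at 71.5, 76.6 and 73.7 CPM in the shAKR1B1 libraries, 78.4, 90.4 and 91.4 CPM in the shSORD libraries and 144, 143 and 147 CPM in the control libraries. The groups did not overlap. FEN1 had a log2 fold change of -0.97 (SE 0.0622, adjusted p = 7.46e-09) with shAKR1B1 and -0.74 (SE 0.0618, adjusted p = 1.58e-07) with shSORD. LIG1, the ligase that joins the fragments, moved less, at -0.27 with shAKR1B1 and -0.33 with shSORD. PCNA, the sliding clamp itself, was at 349.8, 358 and 342 CPM in the shAKR1B1 libraries, 424, 436 and 432 CPM in the shSORD libraries and 453, 456 and 435 CPM in the control libraries. The shAKR1B1 libraries lay below all others, while the shSORD libraries reached into the range of the control libraries. PCNA (ENSG00000132646) had a log2 fold change of -0.36 (SE 0.0461, adjusted p = 1.05e-05) with shAKR1B1 and of -0.06 (SE 0.0460, adjusted p = 0.302) with shSORD, which did not pass and turned to 0.015 (adjusted p = 0.81) under upper quartile scaling.

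Replication factor C, the loader that opens the clamp, has a large subunit (RFC1) and 4 small ones (RFC2 to RFC5). RFC1 was at 74.4, 73.4 and 67.3 CPM in the shAKR1B1 libraries, 68.3, 65.1 and 72.7 CPM in the shSORD libraries and 66.4, 69.6 and 64.9 CPM in the control libraries. The 3 groups overlapped. RFC1 (ENSG00000035928) had a log2 fold change of 0.10 (SE 0.0619, adjusted p = 0.192) with shAKR1B1 and 0.04 (SE 0.0619, adjusted p = 0.638) with shSORD, and it passed as risen with shAKR1B1 under upper quartile scaling (0.16, adjusted p = 0.0399) and with only the libraries of these 2 groups (0.12, adjusted p = 0.0305). RFC3 was at 30.4, 30.8 and 33.5 CPM in the shAKR1B1 libraries, 39.5, 39.2 and 48.2 CPM in the shSORD libraries and 62.1, 61.9 and 61.5 CPM in the control libraries. The shAKR1B1 libraries were lowest and the control libraries highest, with no overlap. Its log2 fold change was -0.97 (SE 0.0782, adjusted p = 7.94e-08) with shAKR1B1 and -0.55 (SE 0.0770, adjusted p = 2.71e-05) with shSORD. RFC5 was at 47.9, 44.9 and 46.95 CPM in the shAKR1B1 libraries, 48.7, 55.5 and 58.6 CPM in the shSORD libraries and 78.8, 78.3 and 78.3 CPM in the control libraries, and RFC2 was at 42.3, 46.6 and 45.2 CPM in the shAKR1B1 libraries, 49.6, 55.9 and 52.7 CPM in the shSORD libraries and 67.5, 68.7 and 71.0 CPM in the control libraries. Both followed the order of RFC3, with the 3 groups apart. RFC4 fell least of the small subunits, by 0.26 with shAKR1B1 and by 0.32 with shSORD on the log2 scale. DSCC1, part of an alternative loader with CHTF18 and CHTF8, was at 17.8, 18.5 and 19.1 CPM in the shAKR1B1 libraries, 14.1, 12.9 and 17.5 CPM in the shSORD libraries and 22.1, 23.4 and 23.3 CPM in the control libraries. Its libraries were lowest with shSORD and highest in control cells, and replicate 3 of shSORD came close to the shAKR1B1 libraries. The log2 fold change of DSCC1 was -0.31 (SE 0.0917, adjusted p = 0.00946) with shAKR1B1 and -0.63 (SE 0.0929, adjusted p = 4.41e-05) with shSORD. Processed pseudogenes exist for PCNA, RFC3, RFC5 and FEN1, and the handling of reads that map to several places is not given in the sources used here, so their counts are uncertain to that extent.

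**Figure D4:**
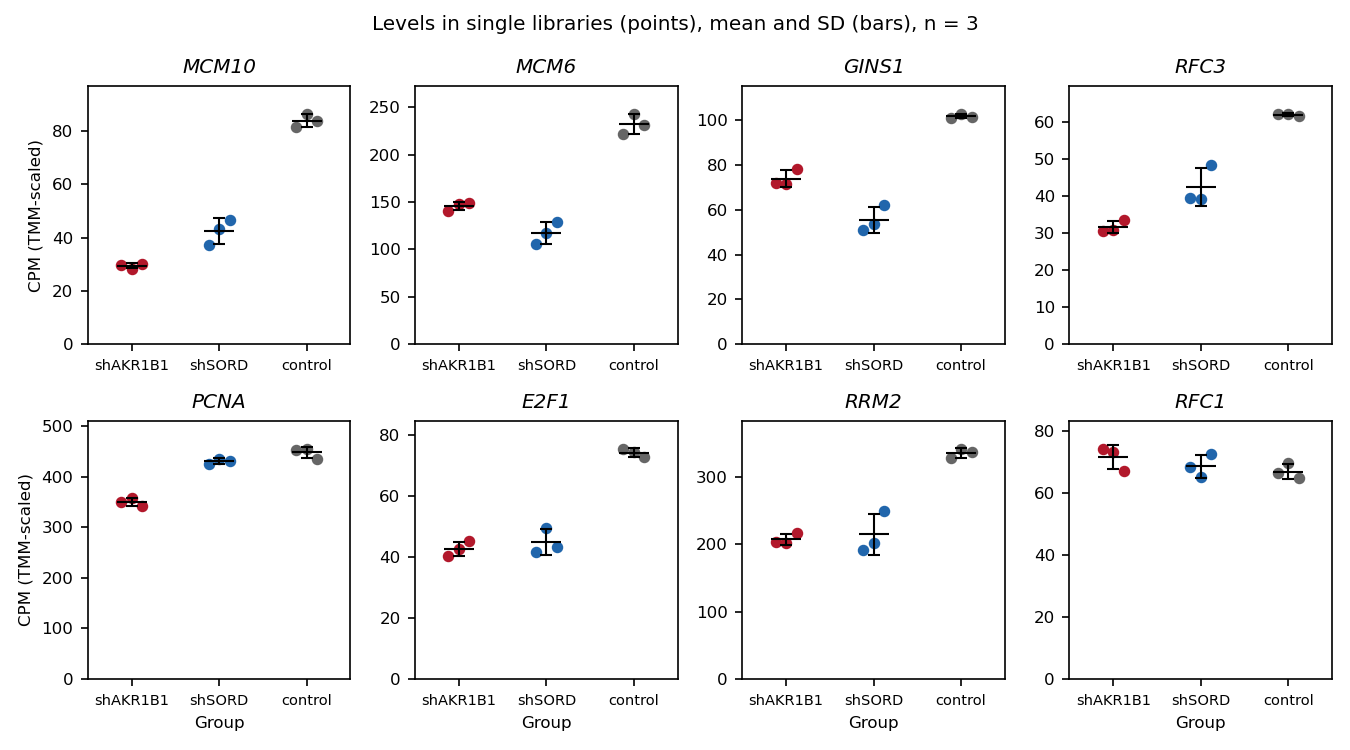
TMM-scaled CPM of 8 genes in single libraries (points), with the mean and SD (bars, n = 3 per group), for shAKR1B1, shSORD and control from left to right. MCM10, RFC3 and PCNA are lowest with shAKR1B1, MCM6 and GINS1 are lowest with shSORD, E2F1 and RRM2 overlap between the knockdowns, and the 3 groups of RFC1 overlap.

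The replicative polymerases fell with shAKR1B1 in 8 of 8 cases and with shSORD in 7 of 8, with medians of -0.42 with shAKR1B1 and -0.43 with shSORD. POLE, the catalytic subunit of the leading-strand polymerase, moved least. It was at 123, 129 and 136 CPM in the shAKR1B1 libraries, 136, 154 and 145 CPM in the shSORD libraries and 154, 158 and 154 CPM in the control libraries. The shAKR1B1 libraries were below control, and shSORD replicate 2 reached the control range. POLE had a log2 fold change of -0.26 (SE 0.0580, adjusted p = 0.00141) with shAKR1B1 and -0.10 (SE 0.0578, adjusted p = 0.152) with shSORD, which did not pass in the full set and passed without shSORD replicate 2 (-0.15, adjusted p = 0.0285). Its partner subunit POLE2 was at 15.5, 12.6 and 15.4 CPM in the shAKR1B1 libraries, 12.1, 11.1 and 17.5 CPM in the shSORD libraries and 19.9, 19.5 and 19.2 CPM in the control libraries. Replicate 2 was the lowest library of each knockdown, and shSORD replicate 3 was the highest knockdown library. POLE2 had a log2 fold change of -0.43 (SE 0.133, adjusted p = 0.0118) with shAKR1B1 and -0.53 (SE 0.133, adjusted p = 0.0035) with shSORD, with the largest standard errors of the set, and without shAKR1B1 replicate 2 the value with shAKR1B1 was -0.32 (adjusted p = 0.0649).

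Of the lagging-strand polymerase, the accessory subunit POLD3 was at 39.2, 40.7 and 43.6 CPM in the shAKR1B1 libraries, 45.04, 46.1 and 51.3 CPM in the shSORD libraries and 60.2, 59.9 and 59.3 CPM in the control libraries. The groups did not overlap. Its log2 fold change was -0.54 (SE 0.0650, adjusted p = 5.55e-06) with shAKR1B1 and -0.33 (SE 0.0646, adjusted p = 0.000478) with shSORD. POLD1, its catalytic subunit, stood at -0.53 with shAKR1B1 and -0.45 with shSORD, and POLD2 at -0.35 with shAKR1B1 and -0.42 with shSORD. The polymerase alpha subunits POLA1 and POLA2 and the primase PRIM1, which start each new strand, ranged from -0.50 to -0.38 with shAKR1B1 and from -0.46 to -0.39 with shSORD. A gene of the same strand overlaps 35.1% of the exon bases of POLA2, and POLD2 has a processed pseudogene, so both are uncertain.

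Genes of nucleotide supply fell in both knockdowns (4 of 4 in each), with a median of -0.39 with shAKR1B1 and -0.46 with shSORD. RRM2, the small subunit of ribonucleotide reductase that is made in S phase, was at 203, 202 and 217 CPM in the shAKR1B1 libraries, 192, 202 and 249 CPM in the shSORD libraries and 327, 342 and 336 CPM in the control libraries. All knockdown libraries lay below control, and shSORD replicate 3 was the highest of them. RRM2 had a log2 fold change of -0.69 (SE 0.0779, adjusted p = 2.60e-06) with shAKR1B1 and -0.64 (SE 0.0778, adjusted p = 6.23e-06) with shSORD. Its large subunit partner RRM1 fell by 0.32 with shAKR1B1 and by 0.36 with shSORD. Thymidine kinase (TK1), which salvages thymidine, was at -0.47 with shAKR1B1 and -0.57 with shSORD. Thymidylate synthase (TYMS) averaged 167 ± 1.96 CPM with shAKR1B1, 178 ± 14.5 CPM with shSORD and 204 ± 2.10 CPM in control cells (SD, n = 3 each), with log2 fold changes of -0.29, adjusted p = 0.00057 with shAKR1B1 and -0.19, adjusted p = 0.0109 with shSORD. The shSORD call of TYMS was lost without shSORD replicate 1 (-0.12, adjusted p = 0.0792) and under upper quartile scaling (-0.12, adjusted p = 0.0901). The opposite-strand gene ENOSF1 overlaps 39.1% of its exon bases and a same-strand gene 20.2% of those of RRM2, and both have processed pseudogenes, so these counts are uncertain.

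Chromatin, single-strand DNA and checkpoint factors also fell in 6 of 6 cases in each knockdown, with medians of -0.55 with shAKR1B1 and -0.50 with shSORD. SLBP, which binds the stem-loop of histone messages in S phase, was at 49.6, 49.3 and 53.96 CPM in the shAKR1B1 libraries, 43.7, 47.1 and 48.96 CPM in the shSORD libraries and 73.6, 78.7 and 77.3 CPM in the control libraries. The shSORD libraries were lowest and the control libraries highest, with no overlap. SLBP had a log2 fold change of -0.59 (SE 0.0626, adjusted p = 1.54e-06) with shAKR1B1 and -0.72 (SE 0.0628, adjusted p = 2.54e-07) with shSORD. Claspin (CLSPN), the adaptor that links stalled forks to the kinase CHEK1, was at 26.4, 27.4 and 27.1 CPM in the shAKR1B1 libraries, 25.4, 29.8 and 31.6 CPM in the shSORD libraries and 37.1, 44.1 and 42.6 CPM in the control libraries. Control replicate 1 was the lowest control library, still above every knockdown library. CLSPN had a log2 fold change of -0.61 (SE 0.0847, adjusted p = 2.02e-05) with shAKR1B1 and -0.51 (SE 0.0843, adjusted p = 0.000118) with shSORD. The histone chaperone subunits CHAF1A and CHAF1B fell by 0.56 and 0.50 with shAKR1B1 and by 0.56 and 0.49 with shSORD. Of the single-strand binding protein, RPA1 fell by 0.23 with shAKR1B1 and by 0.34 with shSORD, and RPA2, which has a processed pseudogene, by 0.53 with shAKR1B1 and by 0.47 with shSORD.

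The knockdowns were tested against each other as the difference of their means, with the control libraries entering through the filter, the scaling and the shared estimate of the spread. With shAKR1B1 against shSORD, 10 of the 48 genes were lower (20.8%) and 3 higher (6.25%), beside 15.1% of all tested genes that were lower and 15.5% that were higher, so that the total share of the set that was called (27.1%) was not above that of all genes. The shAKR1B1 and shSORD libraries did not overlap for 15 of the 48, beside 40.1% of all tested genes. The median of the 48 was -0.05, and 0.01 over all tested genes. Lower with shAKR1B1 were MCM10 (-0.53 (SE 0.0758, adjusted p = 8.06e-05)), RFC3 (-0.42 (SE 0.0785, adjusted p = 0.000802)), PCNA (-0.30 (SE 0.0461, adjusted p = 0.000157)), MCM5 (-0.26), RFC2 (-0.24), MCM4 (-0.24), FEN1 (-0.23), RFC5 (-0.22), POLD3 (-0.20) and POLE (-0.16), all as log2 fold changes. Higher with shAKR1B1 were GINS1 (0.41 (SE 0.0705, adjusted p = 0.000408)), DSCC1 (0.32 (SE 0.0938, adjusted p = 0.0186)) and MCM6 (0.31 (SE 0.0670, adjusted p = 0.00227)). Of these 13, 6 belong to the clamp and loader group, while none of the nucleotide, E2F and cyclin E or chromatin genes was called. The other 35 had log2 differences of -0.15 to 0.16 and did not pass the test, which does not show that they were alike.

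MCM10, RFC3, PCNA, GINS1 and MCM6 were called in the direct test under every one of the 17 alternatives. The number of lower genes was 4 without shAKR1B1 replicate 1, 6 without shAKR1B1 replicate 2 and 13 without shSORD replicate 1, and the number of higher genes was 6 without shSORD replicate 2 and 5 without shSORD replicate 3. With the replicate number as a block, MCM2 (-0.15, adjusted p = 0.0488) and MCM3 (-0.15, adjusted p = 0.038) passed as well, for 12 lower and 3 higher genes. POLE was near the threshold (adjusted p = 0.0498) and its call was lost in 10 alternatives.

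**Figure D5:**
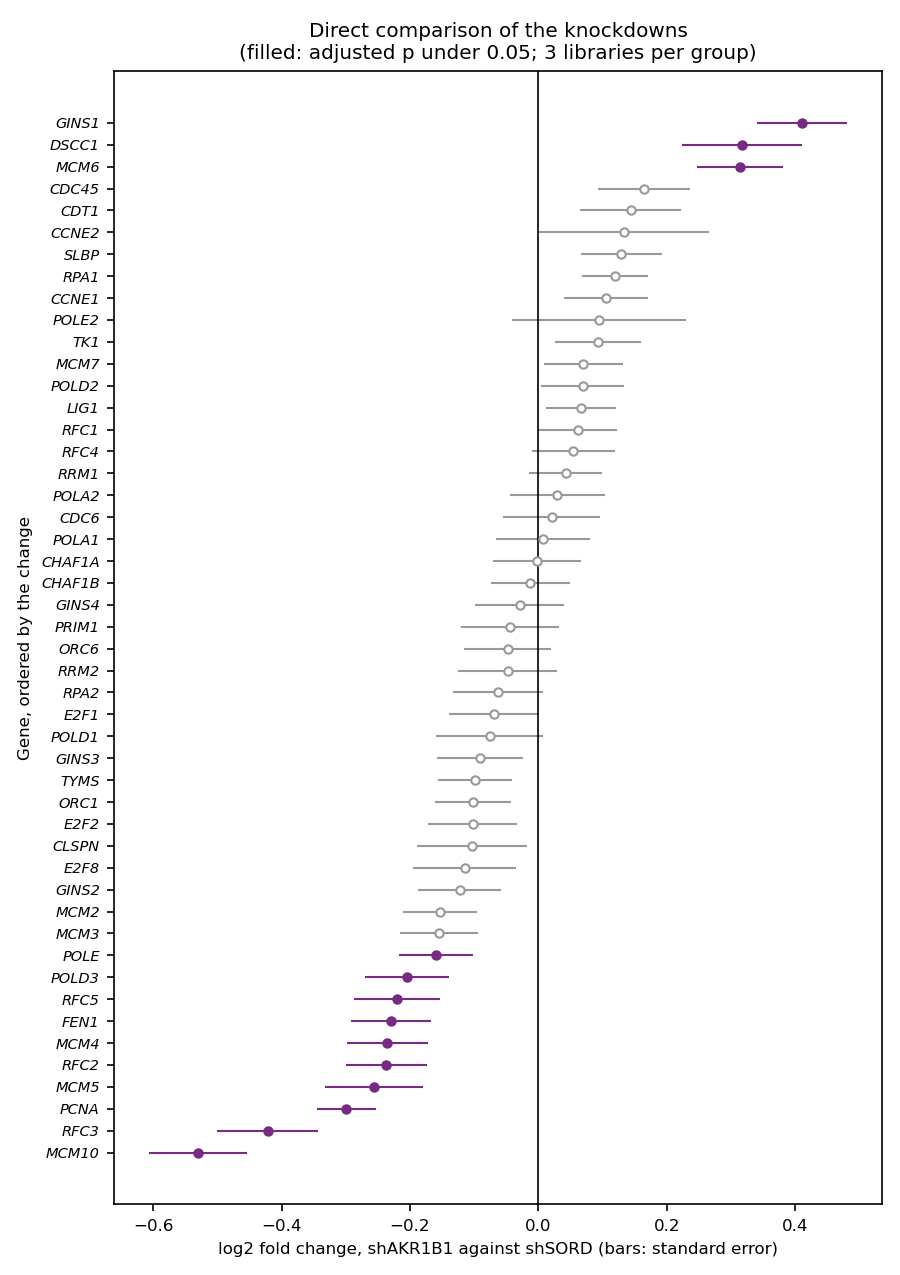
Log2 fold change of shAKR1B1 against shSORD for the 48 genes, ordered by the change (n = 3 libraries per group). Points are fitted values, bars standard errors, and filled points passed an adjusted p under 0.05. MCM10 (-0.53) and RFC3 (-0.42) are at the low end and GINS1 (0.41) is at the high end.

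Levels per exon length, a rough comparison between genes, showed a wide range within the set. The length is that of all annotated exons of a gene together, so it can exceed that of any 1 transcript. As RPKM, the TMM-scaled CPM per kilobase of exon, the median gene was at 13.1 with shAKR1B1, 13.7 with shSORD and 19.2 in control cells. PCNA was the most abundant, at 238 RPKM with shAKR1B1, 293 RPKM with shSORD and 305 RPKM in control cells, and CCNE2 the least, at 1.904 RPKM with shAKR1B1, 1.74 RPKM with shSORD and 2.90 RPKM in control cells. Subunits of 1 complex differed in this measure, which depends on the exon length used. MCM5 and MCM2, for example, stood at 165.2 and 176.8 CPM in control cells, with exon lengths of 7338 and 4902 bases. Within MCM2-7, MCM7 was highest and MCM5 lowest, with a ratio of 5.69 with shAKR1B1, 4.54 with shSORD and 4.30 in control cells. Within replication factor C, RFC2 was highest and RFC1 lowest, with a ratio of 1.896 with shAKR1B1, 2.33 with shSORD and 3.13 in control cells. The highest GINS subunit was GINS1 with shAKR1B1 and in control cells and GINS2 with shSORD, while GINS3 was lowest in all groups. These ratios are over group means of 3 libraries and carry no test.

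Genes of the same pathways outside the set were given by 7 lists, whose counts stand beside the shares of all tested genes given above (29.6% fell and 27.8% rose with shAKR1B1, 29.0% fell and 27.5% rose with shSORD) and the larger shares that fell among genes at the levels of the 48 (41.1% with shAKR1B1 and 41.5% with shSORD). Of 31 other replication factors, 16 fell (51.6%) and 2 rose with shAKR1B1 (median -0.19), and 21 fell (67.7%) and 3 rose with shSORD (median -0.28). POLE3, a histone-fold subunit of the leading-strand polymerase, was at 67.7, 66.1 and 68.1 CPM in the shAKR1B1 libraries, 64.8, 69.4 and 73.1 CPM in the shSORD libraries and 148, 148 and 148 CPM in the control libraries. All knockdown libraries were far below the control libraries, and its log2 fold change was -1.14 with shAKR1B1 and -1.10 with shSORD. TIPIN, of the fork protection complex, stood at -0.83 with shAKR1B1 and -0.96 with shSORD. POLD4, the smallest subunit of the lagging-strand polymerase, rose instead, to 32.1 ± 3.03 CPM with shAKR1B1 and 25.8 ± 4.31 CPM with shSORD, against 19.4 ± 0.534 CPM in control cells (SD, n = 3 each). RPA3, the third subunit of the single-strand binding protein, fell with shSORD (-0.43, adjusted p = 6.10e-05) and was higher with shAKR1B1 than with shSORD (0.36, adjusted p = 0.000715).

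Of 16 other genes of nucleotide supply, 12 fell with shAKR1B1 (75.0%) and 15 with shSORD (93.8%), and 0 rose in either. CTP synthase (CTPS1) was at -0.79 with shAKR1B1 and -0.38 with shSORD, and was lower with shAKR1B1 than with shSORD (-0.41, adjusted p = 0.00181). Thymidylate kinase (DTYMK) stood at -0.66 with shAKR1B1 and -0.63 with shSORD, the pyrimidine enzyme UMPS at -0.64 with shAKR1B1 and -0.79 with shSORD, and the deoxynucleotide hydrolase SAMHD1 at -0.61 with shAKR1B1 and -0.71 with shSORD. RRM2B, the reductase subunit induced by p53, was higher with shAKR1B1 than with shSORD (0.37, adjusted p = 0.00503).

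The G1 cyclins, kinases and their inhibitors did not move as one group. Of 13 that passed the filter, 8 fell (61.5%) and 2 rose with shAKR1B1, and 5 fell (38.5%) and 2 rose with shSORD. The other 3 (CCND2, CDKN2A and CDKN2B) had 0 to 2 counts per library. CDKN1B (p27), an inhibitor of cyclin E and CDK2, rose in both knockdowns and was at 67.8, 67.5 and 68.7 CPM in the shAKR1B1 libraries, 67.2, 61.1 and 62.2 CPM in the shSORD libraries and 33.97, 31.1 and 34.6 CPM in the control libraries. All knockdown libraries stood well above control, with log2 fold changes of 1.03 (SE 0.0622, adjusted p = 3.69e-09) with shAKR1B1 and 0.93 (SE 0.0622, adjusted p = 1.52e-08) with shSORD. CDC25A, the phosphatase that activates CDK2, was at -0.97 with shAKR1B1 and -1.05 with shSORD. CDKN1A (p21), the inhibitor induced by p53, was at 45.7, 45.5 and 47.02 CPM in the shAKR1B1 libraries, 101, 117 and 104 CPM in the shSORD libraries and 85.1, 76.5 and 79.8 CPM in the control libraries. It fell with shAKR1B1 (-0.80) and rose with shSORD (0.41), and the direct difference was -1.22 (SE 0.0659, adjusted p = 4.93e-09). Cyclin D1 (CCND1) fell with shAKR1B1 (-0.40), was -0.12 with shSORD (adjusted p = 0.0578), and was lower with shAKR1B1 than with shSORD (-0.28). CDK6, a cyclin D kinase, was at -0.68 with shAKR1B1 and at -0.12, adjusted p = 0.326 with shSORD.

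Of 17 other genes of the E2F, RB and DREAM factors, 8 fell (47.1%) and 2 rose (11.8%) with shAKR1B1. With shSORD, 7 fell (41.2%) and 2 rose (11.8%). Among genes with control levels of 12.75 to 448.1 CPM, 41.1% fell and 22.9% rose with shAKR1B1. With shSORD, 41.5% fell and 21.4% rose in that band. The fallen shares of the list were thus close to those of the band, and its risen shares were lower. Not every listed gene lay in the band, as LIN37 averaged 2.49 CPM in control cells. MYBL2, an activator of G2/M genes, was at -0.77 with shAKR1B1 and -0.56 with shSORD, and FOXM1, which acts with it, at -0.60 with shAKR1B1 and -0.53 with shSORD. The retinoblastoma relatives went apart: RBL1 (p107), itself an E2F target, was at -0.52 with shAKR1B1 and -0.56 with shSORD, whereas RBL2 (p130), typical of resting cells, rose by 0.67 with shAKR1B1 and by 0.44 with shSORD. RB1 did not pass in either (0.05, adjusted p = 0.717 with shAKR1B1 and -0.08, adjusted p = 0.513 with shSORD).

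Of 11 genes of histone supply and replication chromatin, 7 fell with shAKR1B1 (63.6%) and 11 with shSORD, and 0 rose. The histone chaperone ASF1B was at -0.81 with shAKR1B1 and -0.42 with shSORD, the maintenance methyltransferase DNMT1 at -0.53 with shAKR1B1 and -0.48 with shSORD, the FACT subunit SSRP1 at -0.38 with shAKR1B1 and -0.56 with shSORD, and the histone acetyltransferase HAT1 at -0.34 with shAKR1B1 and -0.51 with shSORD. ASF1A, the paralog of ASF1B, fell with shSORD (-0.42), was -0.13 with shAKR1B1 (adjusted p = 0.299), and was higher with shAKR1B1 than with shSORD (0.29). Of 16 genes of S-phase repair, 8 fell with shAKR1B1 and 15 with shSORD (93.8%), and 0 rose. The mismatch repair gene MSH6 was at -0.69 with shAKR1B1 and -0.44 with shSORD, and the uracil glycosylase UNG at -0.68 with shAKR1B1 and -0.59 with shSORD. BRCA2 did not pass with shAKR1B1 (-0.08, adjusted p = 0.56), fell with shSORD (-0.50) and was higher with shAKR1B1 than with shSORD (0.42, adjusted p = 0.0108).

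Among 22 genes of G2 and mitosis, 10 fell (45.5%) and 1 rose (4.55%) with shAKR1B1, with a median of -0.15. With shSORD, 16 fell (72.7%) and 1 rose (4.55%), with a median of -0.31. Among genes with control levels of 12.75 to 448.1 CPM, 41.1% fell and 22.9% rose with shAKR1B1. With shSORD, 41.5% fell and 21.4% rose in that band. Only the fallen share with shAKR1B1 was close to that of the band. MKI67, at 804 to 888 CPM in the control libraries, lay above the band. With shAKR1B1 against shSORD 9 of the 22 were higher (40.9%) and 0 lower, with a median of 0.14, beside 15.5% higher and 15.1% lower among all tested genes. The mitotic activator CDC20 was at -0.77 with shAKR1B1 and -0.82 with shSORD, and the kinase PLK1 at -0.71 with shAKR1B1 and -0.73 with shSORD. UBE2C, the ubiquitin-conjugating enzyme of the anaphase-promoting complex, was at 100.3, 99.4 and 107 CPM in the shAKR1B1 libraries, 53.6, 66.2 and 59.9 CPM in the shSORD libraries and 136, 135 and 139 CPM in the control libraries, with a direct difference of 0.77 (SE 0.0686, adjusted p = 7.33e-07). CDC25C, the phosphatase that activates CDK1, rose by 0.60 with shAKR1B1 and by 0.19 with shSORD. MKI67, the proliferation marker made from S phase to mitosis, was at 818, 809.5 and 825 CPM in the shAKR1B1 libraries, 640.3, 723 and 745 CPM in the shSORD libraries and 804, 888 and 861 CPM in the control libraries. It did not pass with shAKR1B1 (-0.06, adjusted p = 0.411), fell with shSORD (-0.28, adjusted p = 0.00104), and was higher with shAKR1B1 than with shSORD (0.22, adjusted p = 0.0116).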

How the data were processed

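The deposited table holds the authors' raw counts of reads per Ensembl gene for 9 libraries, whole numbers without normalization. Per the submitters' processing notes, the build was GRCh37 and the tools were STAR 2.5.2b, cutadapt 1.9.1, DESeq2 1.12.3 and, from Subread, featureCounts 1.5.1. Per the labels' protocols, libraries were made with the TruSeq stranded mRNA kit. The sources used here give no annotation release, no strand setting and no treatment of multiply mapped reads.

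Symbols matched 51996 of 57905 IDs, and every column belonged to a labelled sample. The listed UHRF1 and PECAM1 matched no single ID. Differences were tested with the quasi-likelihood test of edgeR 4.0.16 (R 4.3.3) in 1 fit of the 9 libraries with a mean for each group. Library sizes were TMM-scaled, filterByExpr kept 16916 genes, and p-values were adjusted over these by the method of Benjamini and Hochberg. CPM are counts per 1e6 counts of the TMM-scaled library. The standard error (SE) was the size of the log2 fold change over the root of the F statistic. The common biological coefficient of variation was 6.59%. Exon lengths and overlaps came from GENCODE 29, on another build than the counts, so only lengths, overlaps and names were used. No 2 libraries of a group agreed within sampling noise (chi-square per gene 2.43 to 27.7). The script was tested on simulated counts. Alternatives were other scaling (RLE, upper quartile), DESeq2 1.42.0, other filters, only the libraries compared, a replicate block and each library left out.

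Replicate numbers come from the titles. Same-numbered shAKR1B1 and shSORD libraries deviated together weakly (correlations 0.102, 0.193 and 0.144). Pairs with control libraries did not (-0.0285 to 0.0314). Libraries of different numbers were not compared, so whether the numbers mark pairs is not settled. The main fit did not pair the libraries, and the replicate block was run as an alternative.

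The genes, their role groups and the other lists were chosen with earlier results of these data known. Library values are given in full for the genes of each role group with the largest change in either knockdown, those called between the knockdowns and those that departed from their group. Of the other lists the 2 called genes with the largest change per comparison are named, with CCND1, CDKN1A, CDKN1B, RB1, FOXM1, MYBL2 and MKI67.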

Additional observations from a re-analysis of the deposited data

Results flagged for a closer look

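For 13 genes the effects of the knockdowns differed in the direct edgeR test of shAKR1B1 against shSORD (n = 3 libraries per group). These were 27.1% of the 48 genes, 20.8% lower and 6.25% higher, beside 15.1% of all tested genes that were lower and 15.5% that were higher. The total share called in the set was thus not above that of all tested genes. The log2 differences were -0.53 for MCM10, -0.42 for RFC3, -0.30 for PCNA, -0.26 for MCM5, -0.24 for RFC2, -0.24 for MCM4, -0.23 for FEN1, -0.22 for RFC5, -0.20 for POLD3 and -0.16 for POLE, and 0.41 for GINS1, 0.32 for DSCC1 and 0.31 for MCM6. For MCM6, GINS1 and MCM10 all 3 shAKR1B1 libraries stood on 1 side of all 3 shSORD libraries. The same held for MCM4, PCNA, RFC2, RFC3, RFC5, DSCC1, FEN1 and POLD3, and not for MCM5 and POLE. These 13 were picked by a test on the same libraries, so their separation adds no evidence of its own. Over the whole set, 15 of the 48 genes had every shAKR1B1 library on 1 side of the shSORD libraries, beside 40.1% of all tested genes.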

How the results depend on the processing

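In all, 16 alternatives were run for each knockdown against control and 17 for the direct test. Against control, 45 of 46 calls with shAKR1B1 and 43 of 45 with shSORD were kept in every alternative, with POLE2, CDT1 and TYMS as the exceptions described above. The count of risen genes with shAKR1B1 was 1 under upper quartile scaling and 1 with only the libraries compared, in both cases RFC1. The log2 fold change of PCNA with shSORD was 0.015 under upper quartile scaling in place of -0.06, and the cause was not tested. That scaling moved the median of all genes by less than 0.1 on the log2 scale (to 0.058 with shAKR1B1 and 0.07 with shSORD). With 1 library left out, 45 to 46 genes fell and 0 rose with shAKR1B1, 43 to 46 fell and 0 rose with shSORD, and 4 to 13 were lower and 2 to 6 higher in the direct test. The replicate block left 46 fallen genes with shAKR1B1 and 45 with shSORD against control and gave 12 lower and 3 higher in the direct test, also in a fit of those 6 libraries alone, an alternative chosen after seeing the data, and it lost no call. In the direct test 8 of 13 calls were lost in at least 1 alternative. With 3 libraries a group and a median SE of 0.067, differences well under 0.2 between the knockdowns are seldom called.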
